A study of Homo sapiens with 52 samples.

Results

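The ELAVL proteins are a family of RNA-binding proteins named after the Drosophila gene elav, and the 4 human members, ELAVL1 (HuR), ELAVL2 (HuB), ELAVL3 (HuC) and ELAVL4 (HuD), are described here. The members were chosen by their symbols, and each symbol matched 1 Ensembl gene among the 63241 genes of the deposited expected-count table. The study measured total RNA in i3Neurons, which are glutamatergic-type neurons made from the WTC11 human induced pluripotent stem cell line by doxycycline-induced expression of a neurogenic transcription factor. The neurons were grown on culture inserts whose membrane has 1 µm pores, so that neurites pass to the other side and neurite and soma fractions can be collected apart. Its question, as the title and design state it, is how knocking down an RNA-binding protein alters the transport of messenger RNA.

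All cells were WTC11 i3Neurons, replated on day 3 and harvested on day 17 after doxycycline was first given, and each library started from 10 ng of RNA. Cells of the HNRNPA1 experiment carried either a guide RNA (sgRNA) that represses HNRNPA1 by CRISPR interference or a non-targeting sgRNA, and gave 6 libraries for each of knockdown neurites, control neurites, knockdown somata and control somata. HNRNPA1 encodes hnRNP A1, a splicing regulator. Cells of the TDP-43 experiment carried an sgRNA that represses TARDBP, the gene of the RNA-binding protein TDP-43, or a non-targeting sgRNA, and gave 5 knockdown neurite, 5 control neurite, 4 knockdown soma and 5 control soma libraries. Another knockdown soma library held 541 counts and was left out. Untreated cells carried no sgRNA and gave 4 neurite and 4 soma libraries. Untreated libraries were made with an earlier version of the library kit than the knockdown experiments, so kit and experiment cannot be told apart. The labels do not state whether numbered samples are separate cultures, and the p-values therefore cover the spread between libraries only, which may be technical.

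As background, ELAVL proteins bind uridine-rich and AU-rich stretches of messenger RNA through 3 RNA recognition motifs, and they are known for stabilising bound messages, promoting their translation and, in the nucleus, shaping splicing and polyadenylation. ELAVL1 is present in nearly all cell types, while ELAVL2, ELAVL3 and ELAVL4 are largely neuronal and mark cells that have left the cell cycle. TDP-43 is known to keep cryptic exons out of many neuronal messages, and ELAVL3 is among the messages known to be misspliced in human neurons that lack it.

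The members are paralogs with similar coding sequences, so a 60-base stretch of the 4 aligned coding sequences is shown. It was chosen as the gap-free window, inside 1 exon of each member, with the most positions identical in all 4. It thus shows the closest likeness of all 4 over that length, not how alike their reads typically are. The stretches were read from GENCODE 29 transcripts on hg38 in the direction of transcription. Capitals mark the 14 positions at which at least 1 member differs, and the other 46 positions are identical in all 4. They lie at chr19:7963565-7963624 on the minus strand for ELAVL1, at chr9:23692642-23692701 on the minus strand for ELAVL2, at chr19:11454611-11454670 on the minus strand for ELAVL3 and at chr1:50201034-50201093 on the plus strand for ELAVL4.
ELAVL1: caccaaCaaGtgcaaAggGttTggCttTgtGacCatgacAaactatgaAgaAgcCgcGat
ELAVL2: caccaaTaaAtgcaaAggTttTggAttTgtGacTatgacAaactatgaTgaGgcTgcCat
ELAVL3: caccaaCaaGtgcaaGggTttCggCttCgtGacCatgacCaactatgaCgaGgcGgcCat
ELAVL4: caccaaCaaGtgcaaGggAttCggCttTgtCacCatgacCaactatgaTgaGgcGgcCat
Over aligned coding bases, identity was 77.9% between ELAVL2 and ELAVL4, 76.5% between ELAVL3 and ELAVL4 and 72.6% between ELAVL2 and ELAVL3. ELAVL1 was the most distant member, with 69.5% to 69.9% identity to the others. The longest stretch that any pair of the chosen transcripts shared without a mismatch was 26 bases, between ELAVL3 and ELAVL4.

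The genes lie at chr19:7958579-8005659 (ELAVL1, minus strand), chr9:23690104-23826337 (ELAVL2, minus strand), chr19:11451326-11481046 (ELAVL3, minus strand) and chr1:50048014-50203786 (ELAVL4, plus strand). Overlapping annotated genes held few counts: ELAVL4-AS1, antisense to ELAVL4, had 849 counts over all libraries kept, 0.427% of those of ELAVL4, and none of the other overlapping genes exceeded 0.302% of its member's counts. Since ELAVL proteins bind uridine-rich stretches, the 3′ untranslated regions (UTRs) of the members' own transcripts were searched for them. The longest T run is shown for each in capitals, with T for the U of the RNA. A run could hold 1 other base, with at least 2 T on each side of it. That of ELAVL4 was 5 bases long, in a searched UTR of 224 bases.
ELAVL1, chr19:7959052-7959081, minus strand: attgccTTTTTATTTTTTTTTTTTaatcct
ELAVL2, chr9:23690636-23690664, minus strand: tgctttgagTTTTATTTTTTattatttaa
ELAVL3, chr19:11454220-11454249, minus strand: aaggtttttgTTTCTTTTTTcggctaaaaa
ELAVL4, chr1:50201179-50201203, plus strand: atttcccaTTCTTacttactaaaat
The AU-rich pentamer ATTTA, searched on the transcript strand with overlapping matches counted, occurred 13 times in the 4904 UTR bases of ELAVL1, 16 times in the 2450 bases of ELAVL2 and 9 times in the 3200 bases of ELAVL3. It had no match in the 224 bases of the ELAVL4 transcript used here. Of 18403 genes with an annotated 3′ UTR, 66.1% held ATTTA at least once. A run of 7 T, searched in the same way, matched 12 times in ELAVL1 and 5 times in ELAVL2, did not match in ELAVL3 or ELAVL4, and occurred in 42.5% of those genes. These matches describe the annotated UTR of 1 transcript per gene only. The ELAVL4 transcript has 1591 bases, against 6963 annotated exon bases of the gene. Most ELAVL4 exon sequence was therefore not searched, and the lack of matches does not describe the gene as a whole.

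The repressed genes were checked against the labels on the scale of each experiment, in CPM, a gene's count per 1000000 counts of its library, with the library size scaled by the trimmed mean of M values (TMM). TARDBP had 48.5, 36.9, 40.7, 40.3 and 42.6 CPM in TDP-43 knockdown neurites, against 125.5, 122.7, 108, 112 and 116 CPM in control neurites. In somata TARDBP had 18.7, 18.8, 20.1 and 20.6 CPM after knockdown, against 118, 112, 107, 106 and 110.4 CPM in controls. Knockdown libraries lay below every control library in both fractions, at 36% of control in neurites and 17.7% in somata. HNRNPA1 had a lowest, median and highest value of 182, 199 and 223 CPM in HNRNPA1 knockdown neurites, against 548, 596 and 623 CPM in control neurites. The same 3 values in somata were 125, 142 and 152 CPM after knockdown, against 329, 368 and 379 CPM in controls, and HNRNPA1 stood at 34.1% of control in neurites and 39% in somata.

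Library totals ran from 2541925 to 14977395 counts in neurites and from 5212152 to 28902344 in somata, with the untreated libraries at the low end of each. A member had between 78 and 12475 counts in a library, and the lowest count was that of ELAVL1 in an untreated neurite library. All 12 neuronal markers checked, such as MAP2 and TUBB3, averaged at least 1 CPM in each of the 10 groups. Of the 8 pluripotency markers, 6 averaged at least 1 CPM in untreated somata and 5 in untreated neurites. In each group of the knockdown experiments 2 did. LIN28A (up to 7.69 CPM) and DNMT3B (4.61 to 29.2 CPM) averaged above 1 CPM in every group, and POU5F1 averaged 0.24 to 0.725 CPM over the groups. Summed over their lists, neural progenitor markers reached at most 723.1 CPM in a library, of which NES, the gene of nestin, had a group mean of up to 611 CPM, pluripotency markers 34.2 CPM, astrocyte and oligodendrocyte markers 61.0 CPM, mesenchymal markers 52.6 CPM and cell-cycle markers 77.4 CPM. The 7SL RNA took 0.567% to 29.8% of counts in neurites, against 0.227% to 2.23% in somata, and mitochondrial transcripts took 2.72% to 14.8% in neurites, against at most 4.22% in somata. Their part in the neurite results below was not tested.

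TDP-43 knockdown lowered ELAVL3 in both fractions and more so in somata, while ELAVL2 and ELAVL4 rose in both and ELAVL1 rose in neurites. ELAVL3 is a neuronal member long used as a marker of neurons. In knockdown neurites it had 155, 139, 137, 129 and 125 CPM, against 234, 244, 220.3, 222 and 244 CPM in control neurites. In knockdown somata it had 84.4, 92.1, 89.6 and 91.2 CPM, against 253.7, 289.9, 249, 264 and 249 CPM in control somata. No knockdown library reached the lowest control library in either fraction, and the knockdown somata were the lowest of the 4 groups. The log2 difference, knockdown minus control, was -0.77 ± 0.06 (SE) in neurites (edgeR quasi-likelihood test, Benjamini-Hochberg adjusted p = 1.72e-10), which is 58.7% of control. In somata it was -1.55 ± 0.06 (edgeR adjusted p = 1.05e-16), or 34.2% of control. Ranked by p, ELAVL3 was in place 64 of 22014 genes in neurites and in place 11 in somata.

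The fall of ELAVL3 was smaller in neurites than in somata by 0.78 ± 0.09 on the log2 scale (edgeR interaction term, adjusted p = 1.88e-06), place 13 of 22014 genes by p. TARDBP itself was reduced less in neurites than in somata, as given above, and its part in this difference was not tested. In bulk libraries, fewer cells of a type and less RNA per cell cannot be told apart. The counts used here are per gene, so exon inclusion in ELAVL3 was not measured.

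**Figure D1:**
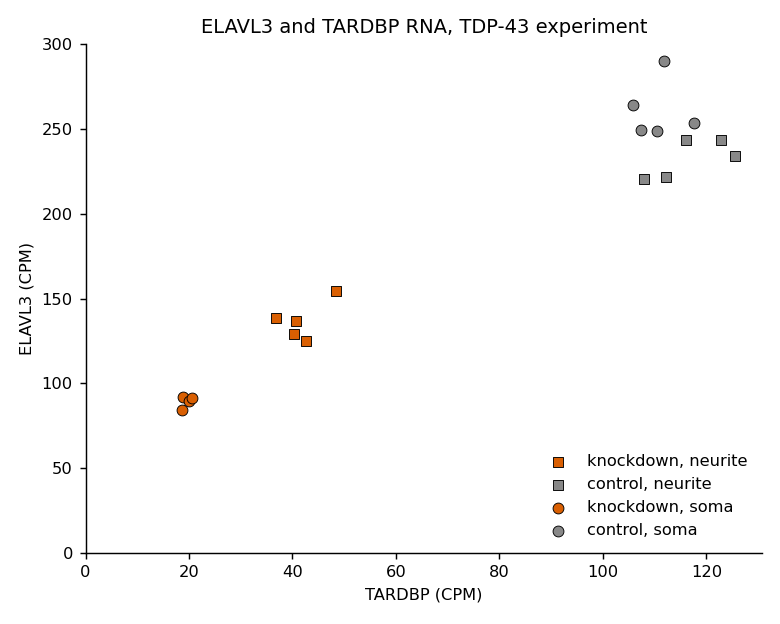
ELAVL3 RNA (y axis, CPM) against TARDBP RNA (x axis, CPM) in each library of the TDP-43 experiment, scaled within that experiment; squares are neurites, circles are somata, orange is knockdown and grey is control. The knockdown somata sit lowest on both axes, at 18.7 to 20.6 CPM of TARDBP and 84.4 to 92.1 CPM of ELAVL3, the knockdown neurites lie between them and the controls, and controls of both fractions hold at least 220.3 CPM of ELAVL3.

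ELAVL2, a neuronal member, had 255, 242, 236, 248 and 265 CPM in TDP-43 knockdown neurites, against 216, 211, 205, 217 and 191 CPM in control neurites. It had 268, 247, 257 and 249.9 CPM in knockdown somata, against 212, 196, 214, 182 and 198 CPM in control somata. All knockdown libraries lay above all control libraries of the same fraction. The rise was 0.26 ± 0.06 on the log2 scale in neurites (edgeR adjusted p = 0.000851), a factor of 1.2, and 0.35 ± 0.06 in somata (edgeR adjusted p = 4.31e-05), a factor of 1.27.

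ELAVL4, a neuronal member known for roles in neurite growth and plasticity, had 303, 292, 323, 321 and 309 CPM in TDP-43 knockdown neurites, against 252, 267, 237, 262 and 271 CPM in control neurites. It had 351, 326, 342 and 339 CPM in knockdown somata, against 287, 285, 307, 268 and 262 CPM in control somata. Again every knockdown library lay above every control library of its fraction. ELAVL4 rose by 0.26 ± 0.06 in neurites (edgeR adjusted p = 0.000758) and by 0.27 ± 0.06 in somata (edgeR adjusted p = 0.00106) on the log2 scale. The effect in neurites minus that in somata was -0.00 for ELAVL4, with a 95% interval of -0.17 to 0.16, and -0.09 for ELAVL2, with an interval of -0.25 to 0.08, and neither passed the threshold (edgeR adjusted p = 0.986 and 0.545).

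ELAVL1, the ubiquitous member, had 152, 162, 150.3, 161 and 147 CPM in TDP-43 knockdown neurites, against 131, 143, 112, 124 and 122 CPM in control neurites. In somata it had 114, 110.1, 111 and 121 CPM after knockdown, against 112, 126, 107, 109 and 108 CPM in controls. The neurite groups did not overlap and the soma groups did. The log2 difference was 0.28 ± 0.06 in neurites (edgeR adjusted p = 0.00102), a factor of 1.217, and 0.02 ± 0.06 in somata (edgeR adjusted p = 0.883). The difference between these effects was 0.26 ± 0.09 and missed the threshold (edgeR adjusted p = 0.0512). It passed in 5 of 19 fits that left out 1 library, which were those without knockdown neurite sample 5 (0.28), knockdown soma sample 4 (0.30), control neurite samples 1 and 2 (0.28 and 0.32) and control soma sample 4 (0.28). DESeq2 also called it (0.26, adjusted p = 0.0292), as did edgeR with the sample number as a replicate block (0.28, adjusted p = 0.048). That block joined knockdown and control libraries of the same number, so it is not a pairing of neurites with somata of the same cells.

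Called members were 4 of 4 in TDP-43 neurites, beside 24.8% of all genes tested, 3 of 4 in TDP-43 somata, beside 18.9%, and 1 of 4 for the difference between fractions, beside 10.5%. With plain library sizes the rises of ELAVL1, ELAVL2 and ELAVL4 in neurites and of ELAVL2 and ELAVL4 in somata were 0.27 to 0.35, against 0.26 to 0.35 with TMM, but their SE was 0.14 to 0.15, against 0.06, and they no longer passed (edgeR adjusted p = 0.0943 to 0.383), while the falls of ELAVL3 kept their calls. The summed neuronal markers also moved in neurites, at 13240 to 14970 CPM after knockdown, against 9934 to 12160 CPM in controls, and overlapped in somata, at 8984 to 10260 CPM after knockdown, against 9384 to 10350 CPM in controls. By gene, 6 of the 12 neuronal markers were higher and 3 lower in knockdown neurites, with a median of 0.16. Summed neural progenitor markers were at 478 to 570.3 CPM in knockdown neurites, against 389.5 to 462.6 CPM in control neurites, and at 274 to 310.8 CPM in knockdown somata, against 210.1 to 270.3 CPM in control somata, and by gene 1 of 8 tested was higher and 2 lower in each fraction. Mitochondrial transcripts took 4.58% to 6.3% of counts in knockdown neurites, against 2.72% to 4.05% in control neurites, and the 7SL RNA took 3.61% to 21% in knockdown neurites, against 11.4% to 29.8% in control neurites. The part of these shifts in the changes of the members was not tested.

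**Figure D2:**
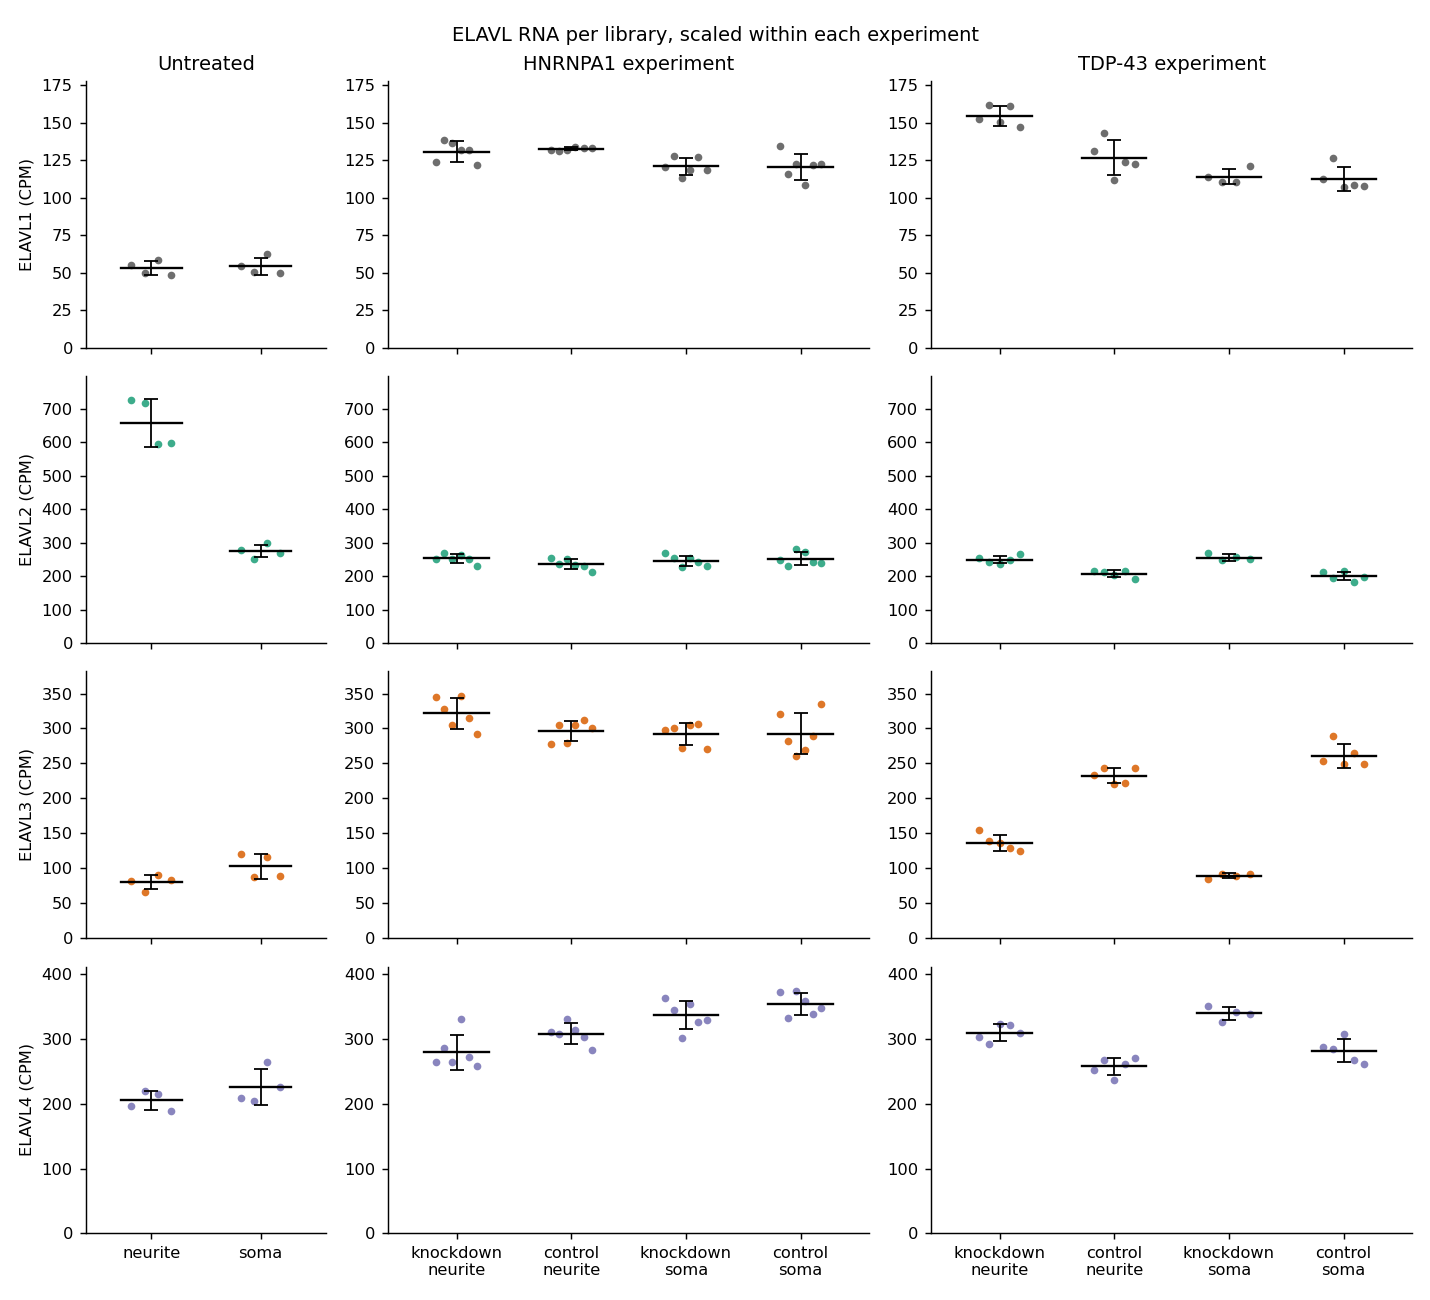
ELAVL RNA in each library (points, CPM scaled within each experiment) with the group mean (wide line) and SD (error bar); the rows are the 4 genes, the columns the 3 experiments, and all y axes start at 0. ELAVL3 falls below every control library in both TDP-43 knockdown groups, at most 155 CPM, and ELAVL2 in untreated neurites, at 596 CPM or more, is above the untreated somata.

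HNRNPA1 knockdown changed no member past the threshold. ELAVL3 had a lowest, median and highest value of 292, 321 and 347 CPM in HNRNPA1 knockdown neurites, against 277, 303 and 312 CPM in control neurites. In somata the values were 271, 299 and 306 CPM after knockdown, against 261, 285 and 335 CPM in controls. The groups overlapped in both fractions, and the log2 difference was 0.12 in neurites, with a 95% interval of -0.00 to 0.24, and -0.00 in somata, with an interval of -0.12 to 0.12 (edgeR adjusted p = 0.184 and 0.99). ELAVL4 was at 258, 269 and 331 CPM in knockdown neurites, against 283, 309 and 331 CPM in control neurites. In somata it was at 302, 337 and 363 CPM after knockdown, against 332, 353 and 374 CPM in controls. These groups overlapped too. Its difference in neurites, -0.14 ± 0.06 (edgeR adjusted p = 0.0931), passed the threshold only without knockdown neurite sample 4 (-0.20, edgeR adjusted p = 0.0126) among the 12 fits that left out 1 library. With plain library sizes it was -0.28 (edgeR adjusted p = 0.00695), and DESeq2 and edgeR with DESeq2's size factors also called it.

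ELAVL2 had a lowest, median and highest value of 229.5, 252 and 269.9 CPM in HNRNPA1 knockdown neurites, against 213, 235 and 255 CPM in control neurites, and of 228, 248 and 268 CPM in knockdown somata, against 231, 245 and 280.0 CPM in control somata. ELAVL1 had 122, 132 and 139 CPM in knockdown neurites, against 131, 132.5 and 133.5 CPM in control neurites, and 113, 119.5 and 128 CPM in knockdown somata, against 108, 122 and 134 CPM in control somata. All of these groups overlapped. Over the 4 members the 95% intervals reached from -0.26 to 0.24 in neurites and from -0.19 to 0.12 in somata. The count of called members was 0 of 4 in neurites, beside 16.2% of all genes, 0 of 4 in somata, beside 7.09%, and 0 of 4 for the difference between fractions, beside 0.177%. ELAVL4 in neurites was the only member with an unadjusted p under 0.05 in any of these 3 comparisons, and DESeq2 called 1 member in neurites, 0 in somata and 0 for the difference.

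The effects of the 2 knockdowns were then compared in 1 fit of all 10 groups, as the TDP-43 effect minus the HNRNPA1 effect. ELAVL3 differed by -0.86 ± 0.11 in neurites (edgeR adjusted p = 5.56e-09) and by -1.52 ± 0.11 in somata (edgeR adjusted p = 1.02e-17). ELAVL4 differed by 0.43 ± 0.10 in neurites (edgeR adjusted p = 0.000822) and by 0.36 ± 0.10 in somata (edgeR adjusted p = 0.00968). ELAVL2 differed in somata, by 0.41 ± 0.09 (edgeR adjusted p = 0.00167), and ELAVL1 in neurites, by 0.33 ± 0.09 (edgeR adjusted p = 0.00846). ELAVL2 in neurites missed the threshold, at 0.19 with a 95% interval of 0.01 to 0.38 (edgeR adjusted p = 0.19), as did ELAVL1 in somata, at 0.04 with an interval of -0.14 to 0.22. This made 3 of 4 members called in each fraction, beside 10.8% of all genes in neurites and 7.64% in somata. The 2 experiments had their own controls. With plain library sizes, ELAVL2 and ELAVL4 in somata no longer passed (0.44 and 0.40, edgeR adjusted p = 0.065 and 0.153).

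**Figure D3:**
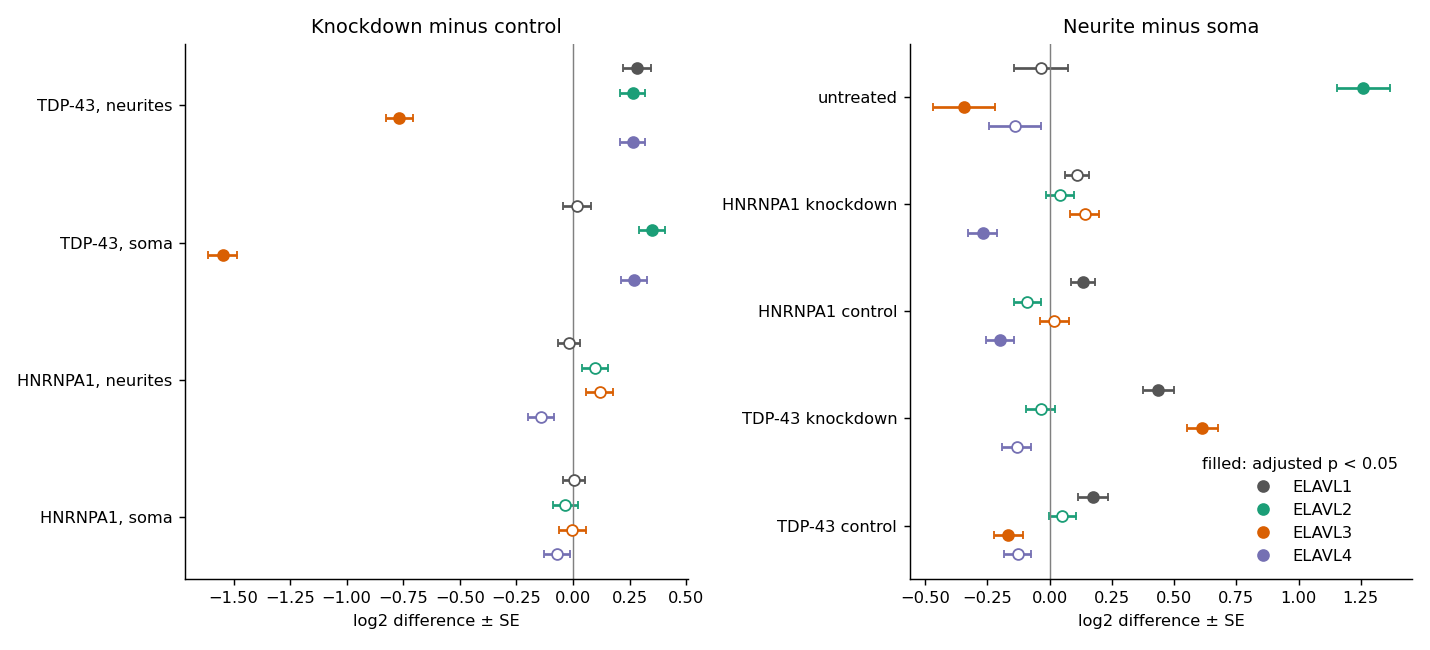
Log2 differences (x axis, points with SE bars) for knockdown minus control in each fraction (left) and for neurite minus soma in each kind of cell (right); filled points have an edgeR adjusted p under 0.05. ELAVL3 has the widest knockdown differences, -0.77 in neurites and -1.55 in somata with TDP-43, and ELAVL2 in untreated cells the widest fraction difference, 1.26.

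The members' share of the family's RNA does not depend on how libraries are scaled. It was computed from CPM per kilobase of annotated exon, as a percent of the sum over the 4 genes. The shares and the order of members do depend on the exon length used, which merged all annotated exons of a gene. For ELAVL4 this was 6963 bases, against 1591 in the transcript used for its UTR above. In control neurons of both knockdown experiments ELAVL3 led without overlapping the next member, at 33.8% ± 1.07 (SD, n = 5) in TDP-43 control neurites and 36.5% ± 1.95 (SD, n = 5) in TDP-43 control somata. ELAVL2 and ELAVL4 followed with overlapping values, and ELAVL1 was last. In HNRNPA1 knockdown cells ELAVL3 also led and ELAVL1 was last, with ELAVL3 at 38.5% ± 1.218 in neurites and 35.1% ± 0.90 in somata (SD, n = 6 each). There ELAVL2 and ELAVL4 overlapped in somata. In neurites the shares of ELAVL2, at 28.05% ± 0.72, lay above those of ELAVL4, at 22.8% ± 1.166, without overlap. Within each HNRNPA1 control neurite library ELAVL2 was above ELAVL4 as well, although there the ranges of the 2 members overlapped.

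After TDP-43 knockdown the order differed. The share of ELAVL3 was 19.97% ± 1.49 (SD, n = 5) in knockdown neurites and 14.1% ± 0.80 (SD, n = 4) in knockdown somata, and ELAVL2 and ELAVL4, which overlapped each other, stood above it. ELAVL2 took 37.2% ± 0.79 of the family in knockdown somata, against 25.9% ± 1.54 in control somata, and ELAVL4 took 36.5% ± 0.38 against 26.9% ± 1.134 (SD, n = 4 and 5). ELAVL1 had the lowest mean share, with values that overlapped those of ELAVL3 in knockdown somata only, and was at 15.4% ± 0.75 in knockdown neurites, against 12.6% ± 0.72 in control neurites (SD, n = 5 each). Shares sum to 100%, so a fall of 1 member raises the others. On the scale shared by all libraries, the summed family level was 144.96 to 149.06 CPM per kilobase in knockdown somata, against 157.74 to 176.55 in control somata, without overlap. In neurites it averaged 154 ± 3.91 after knockdown, against 153 ± 6.31 in controls (SD, n = 5 each), and these ranges overlapped.

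Untreated neurons had another make-up. ELAVL2 led in both fractions, with 70.2% ± 2.94 of the family in untreated neurites and 46.4% ± 1.199 in untreated somata (SD, n = 4 each), followed by ELAVL4, ELAVL3 and ELAVL1, and no 2 neighbours in that order overlapped. ELAVL3 took 9.37% ± 1.65 in untreated neurites and 18.7% ± 2.14 in untreated somata (SD, n = 4 each).

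**Figure D4:**
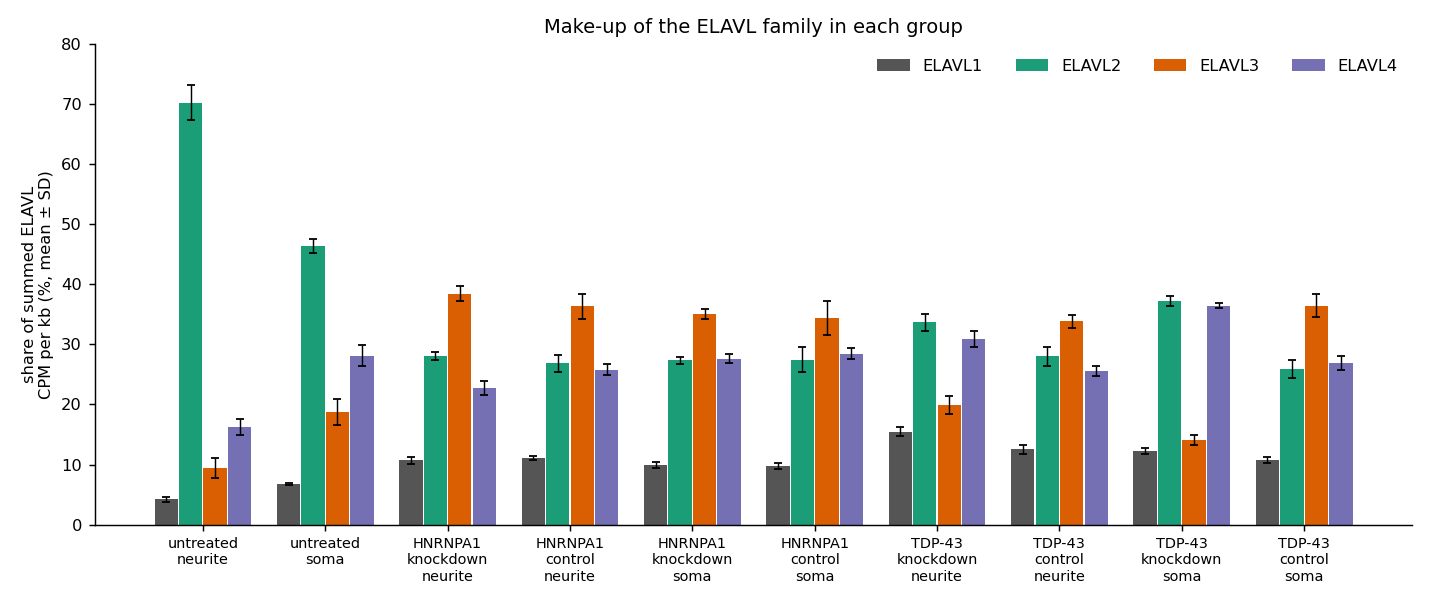
Mean share (bars, y axis in percent, from 0) of each ELAVL gene in the family's summed CPM per kilobase of exon, with SD over libraries, for the 10 groups. ELAVL2 is the tallest bar in untreated cells, at 70.2% in neurites and 46.4% in somata, ELAVL3 in the HNRNPA1 experiment and the TDP-43 controls, and ELAVL2 with ELAVL4 in TDP-43 knockdown cells.

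Levels across all 10 groups were set side by side on the scale shared by all libraries, in CPM. ELAVL3 averaged 246 to 320.0 CPM in the HNRNPA1 groups and the TDP-43 controls, and below them came TDP-43 knockdown neurites at 146 ± 10.99 (SD, n = 5), TDP-43 knockdown somata at 98.6 ± 4.63 (n = 4), untreated somata at 91.3 ± 16.4 (n = 4) and untreated neurites at 60.6 ± 8.89 (n = 4). TDP-43 knockdown somata and untreated somata overlapped, and the other neighbours among these 4 did not. ELAVL1 averaged 118 to 165 CPM in the knockdown experiments, against 39.8 ± 4.25 in untreated neurites and 48.2 ± 5.69 in untreated somata (SD, n = 4 each). ELAVL4 averaged 272 to 374 CPM there, against 154 ± 11.1 in untreated neurites and 200.2 ± 27.2 in untreated somata (SD, n = 4 each). ELAVL2 was highest in untreated neurites, at 493.5 ± 48.3 (SD, n = 4), and its other 9 groups, at 219.6 to 282 CPM, each overlapped the next. Kit and experiment cannot be told apart in these comparisons with untreated cells.

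The fractions were compared within each kind of cell. In untreated cells ELAVL2 had 725, 717, 596 and 597 CPM in neurites, against 279, 252, 298 and 270.4 CPM in somata, without overlap. The log2 difference, neurite minus soma, was 1.26 ± 0.11 (edgeR adjusted p = 1.28e-09), a factor of 2.39. ELAVL3 had 82.2, 66.6, 91.1 and 82.7 CPM in untreated neurites, against 121, 87.1, 116 and 88.4 CPM in somata. These groups overlapped, and its difference of -0.34 ± 0.12 (edgeR adjusted p = 0.0243) ranged from -0.44 to -0.19 when 1 library was left out. The call was lost in 6 of those 8 fits: without neurite samples 4, 5, 6 or 7 it was -0.27, -0.19, -0.32 and -0.28, and without soma samples 4 or 6 it was -0.25 and -0.28. DESeq2 gave -0.32 with an adjusted p of 0.0502. ELAVL4 had 197, 219.6, 216 and 189 CPM in untreated neurites, against 209, 205, 265 and 226 CPM in somata, and ELAVL1 had 55.0, 49.9, 58.6 and 48.5 CPM, against 54.2, 50.8, 62.3 and 50.2 CPM. Both overlapped and missed the threshold, at -0.14 ± 0.10 and -0.03 ± 0.11 (edgeR adjusted p = 0.249 and 0.8). This made 2 of 4 members called, beside 56.5% of all genes.

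These fraction differences depend on the scaling, since TMM factors were 0.7892 to 0.9039 in untreated neurites, against 1.604 to 1.756 in untreated somata. The median over all genes tested was -0.209 with TMM and -1.43 with plain library sizes. With library sizes ELAVL2 was at 0.01 (edgeR adjusted p = 0.883), and ELAVL1 (-1.26), ELAVL3 (-1.57) and ELAVL4 (-1.38) were called lower in neurites. ELAVL2 lay above the median of all genes by 1.47 with TMM and by 1.45 with library sizes. In the fit of all 10 groups, where that median was -0.66, ELAVL1 (-0.29) and ELAVL4 (-0.39) were also called lower in untreated neurites. Summed neuronal markers were at 17960 to 21580 CPM in untreated neurites, against 7372 to 8769 CPM in somata, and by gene 7 of 12 were higher and 2 lower in neurites, with a median of 0.42. Summed neural progenitor markers were at 172 to 206 CPM in untreated neurites, against 79.5 to 83.1 CPM in somata, and 2 of 5 tested were higher and 0 lower. Of the 10 progenitor markers, 5 averaged at least 1 CPM in untreated neurites, where HES5 was at 0, and 7 in somata. Their part in the fraction difference of ELAVL2 was not tested.

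In HNRNPA1 control cells ELAVL4 was lower and ELAVL1 higher in neurites than in somata. ELAVL4 was at 283, 309 and 331 CPM (lowest, median, highest) in HNRNPA1 control neurites, against 332, 353 and 374 CPM in control somata, without overlap, and its log2 difference was -0.20 ± 0.06 (edgeR adjusted p = 0.00428). In HNRNPA1 knockdown cells it was -0.27 ± 0.06 (edgeR adjusted p = 0.000359), with overlapping groups. ELAVL1 was called in HNRNPA1 controls, at 131, 132.5 and 133.5 CPM in neurites, against 108, 122 and 134 CPM in somata, a difference of 0.14 ± 0.05 (edgeR adjusted p = 0.019) that missed the threshold without control soma sample 4 (0.11, edgeR adjusted p = 0.0702) and without the filter on low counts (0.11, edgeR adjusted p = 0.24). ELAVL2 and ELAVL3 did not pass in either kind of cell with TMM. Called members were 2 of 4 in HNRNPA1 controls, beside 48.4% of all genes, and 1 of 4 in HNRNPA1 knockdown cells, beside 35.8%. With plain library sizes all 4 members were called lower in neurites in both, ELAVL1 at -0.22 in controls and -0.33 in knockdown cells, where the medians of all genes were -0.40 and -0.46. In HNRNPA1 knockdown cells ELAVL1 (0.13) and ELAVL3 (0.17) passed without knockdown neurite sample 6, and DESeq2 called ELAVL3 (0.14, adjusted p = 0.0497).

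In TDP-43 controls ELAVL3 was lower in neurites than in somata, at -0.17 ± 0.06 (edgeR adjusted p = 0.0212), and in TDP-43 knockdown cells it was higher, at 0.61 ± 0.06 (edgeR adjusted p = 4.62e-09). The CPM values given above for these 4 groups did not overlap in either pair of fractions. ELAVL1 was higher in neurites in both kinds of cell, by 0.17 ± 0.06 in controls (edgeR adjusted p = 0.0199) with overlapping groups, and by 0.44 ± 0.06 in knockdown cells (edgeR adjusted p = 1.43e-06) without overlap. ELAVL4 missed the threshold in controls at -0.13 ± 0.06 (edgeR adjusted p = 0.0588) and in knockdown cells at -0.13 ± 0.06 (edgeR adjusted p = 0.0545), and ELAVL2 was at 0.05 and -0.03. Called members were 2 of 4 in controls, beside 46.5% of all genes, and 2 of 4 in knockdown cells, beside 57.7%. With plain library sizes ELAVL1 was at -0.43 in controls and -0.11 in knockdown cells, and ELAVL3 was at 0.07 in knockdown cells (edgeR adjusted p = 0.697), where the medians of all genes were -0.63 and -0.56. In controls, the call of ELAVL1 was lost without the filter on low counts (0.09, edgeR adjusted p = 0.381), in the fit of all 10 groups (0.11, edgeR adjusted p = 0.212) and without neurite sample 2 (0.12), soma sample 4 (0.16) or soma sample 6 (0.16), and that of ELAVL3 without neurite sample 5 (-0.15) or soma sample 2 (-0.13). ELAVL4 passed in controls without neurite sample 6 (-0.14), soma sample 5 (-0.15) or soma sample 6 (-0.15), and in knockdown cells without soma sample 2 (-0.16). It also passed in 4 of 6 other alternatives in each kind of cell: in controls and in knockdown cells it was at -0.74 and -0.67 with plain library sizes, -0.12 and -0.12 with DESeq2, -0.21 and -0.23 without the filter on low counts, and -0.19 and -0.18 in the fit of all 10 groups.

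The neurite-soma ratio of ELAVL2 was lower in both kinds of non-targeting control than in untreated cells, a log2 difference of -1.08 ± 0.10 in the HNRNPA1 experiment (edgeR adjusted p = 9.56e-15) and of -1.02 ± 0.10 in the TDP-43 experiment (edgeR adjusted p = 4.92e-13). These 2 comparisons share the untreated libraries. The ratio was higher for ELAVL1, by 0.43 ± 0.11 and 0.39 ± 0.11 (edgeR adjusted p = 0.00123 and 0.00482), and for ELAVL3, by 0.63 ± 0.12 and 0.36 ± 0.13 (edgeR adjusted p = 2.65e-05 and 0.0191). The median of all genes was itself 0.421 and 0.494 in these comparisons, so ELAVL1 lay near it and ELAVL2 far below it. ELAVL3 lay above the median against the HNRNPA1 controls (0.63) and below it against the TDP-43 controls (0.36). The ELAVL3 call against the TDP-43 controls was lost without untreated neurite sample 5 (0.28), untreated soma sample 4 (0.28) or untreated soma sample 6 (0.29), with DESeq2 (0.24, adjusted p = 0.0996) and with its size factors in edgeR (0.25, adjusted p = 0.102). DESeq2 put ELAVL1 against the HNRNPA1 controls at 0.25 (adjusted p = 0.0501). ELAVL4 missed the threshold, at 0.21 and 0.20 (edgeR adjusted p = 0.116 and 0.142), and passed with plain library sizes, at 0.81 and 0.62. Called members were 3 of 4 in each, beside 37.5% and 38.2% of all genes. Between the controls of the 2 knockdown experiments no member's ratio was called (edgeR adjusted p = 0.124 to 1), beside 4.8% of all genes. ELAVL3 alone had an unadjusted p under 0.05 there, and edgeR with plain library sizes called it.

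Messages known to be bound or stabilised by ELAVL proteins moved in both directions after TDP-43 knockdown. Of 24 tested from a list of 26, 2 were higher and 6 lower in somata, and 7 were higher and 3 lower in neurites, beside 9.41% higher and 9.53% lower of all genes in somata and 14% higher and 10.9% lower in neurites. The list medians were -0.06 and 0.01 on the log2 scale, beside 0.02 and -0.03 over all genes. In somata BDNF, a neurotrophin, fell by 0.93 on the log2 scale (edgeR adjusted p = 2.56e-05) and CAMK2A, a synaptic kinase, by 0.65 (edgeR adjusted p = 6.19e-06), while MYC rose by 0.43. In neurites APP, the amyloid precursor, rose by 0.45 (edgeR adjusted p = 1.01e-05), SATB1, a chromatin organiser, rose by 0.35, and BDNF fell by 0.68 (edgeR adjusted p = 0.013). For the difference between fractions, 5 members were higher and 1 lower, beside 5.81% and 4.67% of all genes, and the median was 0.22 beside -0.01. CAMK2A (0.49) and MAPT (0.35), the gene of tau, were among the higher ones.

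After HNRNPA1 knockdown, 23 members of that list were tested. In somata 1 was higher and 4 were lower, beside 3.79% and 3.3% of all genes, with a median of -0.06 beside 0.00. CDKN1A, a cell-cycle inhibitor, rose by 0.82 (edgeR adjusted p = 0.00608), and NRN1, which promotes neurite growth, fell by 0.35 (edgeR adjusted p = 0.000137). In neurites 2 were higher and 5 lower, beside 8.96% and 7.21%, with a median of -0.04 beside 0.00, and CAMK2A fell by 0.40 (edgeR adjusted p = 0.00342). In untreated cells 9 of 24 were higher and 10 lower in neurites, beside 28.7% and 27.8% of all genes, with a median of -0.34 beside -0.21. HOMER1, a synaptic scaffold known to have localised messages, was higher in neurites by 2.60 (edgeR adjusted p = 1.58e-14), and VEGFA, a growth factor, was lower, at -1.53 (edgeR adjusted p = 1.57e-08).

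Among 28 tested genes of other neuronal RNA-binding proteins, 6 were higher and 4 lower in TDP-43 knockdown somata, beside 9.41% and 9.53% of all genes. In knockdown neurites 8 were higher and 2 lower, beside 14% and 10.9%. The medians were 0.01 in somata and 0.04 in neurites. CELF5, a CELF-family splicing regulator, fell in both, by 0.97 in somata (edgeR adjusted p = 3.6e-12) and by 0.62 in neurites (edgeR adjusted p = 2.54e-08). MBNL2, a splicing regulator, rose by 0.92 in somata (edgeR adjusted p = 4.84e-08), and IGF2BP1, known for transporting messages, rose by 0.59 in neurites (edgeR adjusted p = 2.69e-08). After HNRNPA1 knockdown 0 were higher and 3 lower in somata, beside 3.79% and 3.3% of all genes, with a median of -0.01. In neurites 3 were higher and 2 lower, beside 8.96% and 7.21%, with a median of 0.04. CELF2 was among the lower ones in both, at -0.24 in somata (edgeR adjusted p = 0.00373) and -0.35 in neurites (edgeR adjusted p = 4.06e-05). In untreated cells 9 were higher and 12 lower in neurites, beside 28.7% and 27.8% of all genes, with a median of -0.11. Among them were IGF2BP3 at 1.71 and RBFOX1 at -1.26.

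Other proteins that bind AU-rich elements include factors that speed decay of their messages. Of 13 of their genes tested with TDP-43, 2 were higher and 0 lower in somata, namely TIA1 (0.28) and TIAL1 (0.26), which encode stress granule proteins, and 3 were higher and 1 lower in neurites, where TIA1 fell by 0.20 (edgeR adjusted p = 0.0221), with medians of 0.02 and 0.04. Of 12 tested with HNRNPA1, 0 changed in somata and 1 rose in neurites, KHSRP, a decay-promoting factor, by 0.17 (edgeR adjusted p = 0.0456), with medians of 0.01 and -0.01. In untreated cells 5 of 10 were higher and 3 lower in neurites, with a median of 0.24. Among 19 tested partners and modifiers of ELAVL proteins, 2 were higher and 0 lower in TDP-43 knockdown somata and 5 were higher and 1 lower in knockdown neurites, with medians of 0.02 and 0.07. ANP32B, whose family includes known ligands of HuR, rose by 0.25 in somata (edgeR adjusted p = 0.0112) and by 0.75 in neurites (edgeR adjusted p = 9.79e-09), and EIF4A1, a helicase of translation initiation, fell by 0.44 in neurites. With HNRNPA1, 1 of 19 was higher and 0 lower in knockdown somata, and 3 were higher and 2 lower in knockdown neurites, with medians of -0.01 and 0.01. In untreated cells 8 were higher and 3 lower in neurites, with a median of 0.07. The medians over all genes and the shares called in each comparison are those given with the bound messages.

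The genes whose levels most resembled each member were sought among 12190 protein-coding genes, by Pearson's r of log2 CPM over the 51 libraries after centring within each experiment. For ELAVL3 they were TARDBP (r = 0.927), MGAT5B (0.925) and CDH4 (0.917), and 9 of the 51 libraries are TDP-43 knockdown libraries in which ELAVL3 and TARDBP were both low. For ELAVL2 they were DACH1 (0.924), GREB1L (0.911) and NDST4 (0.904). For ELAVL4 they were BTBD1 (0.903), LIN7A (0.901) and TMED10 (0.857), and for ELAVL1 NOL4L (0.891), MLEC (0.881) and GLYR1 (0.857). Between members, r was -0.58 for ELAVL2 and ELAVL3, -0.293 for ELAVL3 and ELAVL4 and 0.217 for ELAVL1 and ELAVL4, and within 0.123 of 0 for the other pairs. These points share libraries, fractions and scaling, so the values are descriptions.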

How the data were processed

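The authors deposited expected counts per gene for 52 libraries. Per the submitters' processing notes, the tools were the aligner STAR 2.7.11b and featureCounts (Subread 2.0.6), on the genome build hg38. Neither the annotation release nor the settings for strand and for reads with several matches were stated in those sources. Whole numbers made up 81.1% of nonzero values (tolerance 0.005), and reads that fit more than 1 paralog could have been split.

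Libraries under 100000 counts were left out, which removed TDP-43 knockdown soma sample 5 and kept 51. Counts were rounded, filtered with filterByExpr, scaled by TMM and tested with edgeR 4.0.16 (R 4.3.3, quasi-likelihood, 2-sided), 1 fit per experiment and 1 of all 10 groups for differences between experiments. P-values were adjusted by Benjamini-Hochberg over all genes tested, with calls at adjusted p under 0.05. Intervals are 95% intervals of the fitted log2 difference. Depth ran from 2541925 to 28902344 counts, and no 2 libraries of a group agreed within sampling noise. Alternatives were plain library sizes, DESeq2's size factors, DESeq2 1.42.0, no filter, a replicate block, 1 fit of all groups and leaving out each library.

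Gene names came from the reference tables for 62666 of 63241 IDs. Sequences and positions are from GENCODE 29. From each gene list, at most 2 called genes per direction and comparison, those with the widest log2 change, could be named, and 3 genes per member by likeness. The members, the lists (messages bound by ELAVL proteins, other AU-rich element binders, other neuronal RNA-binding proteins, ELAVL partners and cell type markers) and the tests were chosen with earlier results of these data known.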

Additional observations from a re-analysis of the deposited data

Results flagged for a closer look

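In TDP-43 control somata, ELAVL1 in sample 2 stood apart from the other 4 libraries by Dixon's criterion, at 140.9 CPM on the scale shared by all libraries, next to 124.5 CPM and with the lowest at 118.4 CPM. Chance marks about 1 in 20 such sets, and 40 sets of a member in a group were tested.

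The effect of TDP-43 knockdown on ELAVL3 was 0.78 higher (log2) in neurites than in somata. The TDP-43 effect minus the HNRNPA1 effect was 0.41 for ELAVL2, -1.52 for ELAVL3 and 0.36 for ELAVL4 in somata, and 0.33 for ELAVL1, -0.86 for ELAVL3 and 0.43 for ELAVL4 in neurites. The neurite-soma ratio in HNRNPA1 controls minus that in untreated cells was 0.43 for ELAVL1, -1.08 for ELAVL2 and 0.63 for ELAVL3. In TDP-43 controls minus untreated cells it was 0.39 for ELAVL1, -1.02 for ELAVL2 and 0.36 for ELAVL3. The medians of all genes were 0.421 for the HNRNPA1 controls and 0.494 for the TDP-43 controls, each minus untreated cells. Each of the members' differences was tested as a term of an edgeR fit and passed the threshold. The ELAVL3 call for the TDP-43 controls was lost with DESeq2 and with its size factors, as given above. The ELAVL1 call for the HNRNPA1 controls was lost with DESeq2 (adjusted p = 0.0501). With plain library sizes, the soma differences between knockdowns lost their calls for ELAVL2 and ELAVL4 (edgeR adjusted p = 0.065 and 0.153). Kit and experiment cannot be told apart in the comparisons with untreated cells.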

How the results depend on the processing

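The fall of ELAVL3 with TDP-43 knockdown kept its direction and call under all alternatives that were run, from -1.56 to -1.54 in somata and from -0.77 to -0.71 in neurites, as did its difference between fractions (0.77 to 0.84), and also in each fit without 1 library. Most other changes came with plain library sizes in place of TMM. With them, fraction differences moved with the median of all genes. The rises of members with TDP-43 knockdown were 0.27 to 0.35 there and lost their calls, with an SE of 0.14 to 0.15, against 0.06 with TMM. Under library sizes the sign turned for ELAVL1 (-0.22) and ELAVL3 (-0.33) in HNRNPA1 controls, for ELAVL1 (-0.33), ELAVL2 (-0.39) and ELAVL3 (-0.30) in HNRNPA1 knockdown cells, for ELAVL1 (-0.43) and ELAVL2 (-0.57) in TDP-43 controls and for ELAVL1 (-0.11) in TDP-43 knockdown cells, all neurite minus soma. The number of members called under library sizes was 4 in HNRNPA1 controls (2 with TMM), 4 in HNRNPA1 knockdown cells (1), 1 in HNRNPA1 neurites (0), 4 in TDP-43 controls (2), 1 in TDP-43 somata (3), 1 in TDP-43 neurites (4), 1 for the difference of the knockdowns in somata (3) and 1 between controls (0). DESeq2 called 1 member in untreated cells (2 with edgeR), 2 in HNRNPA1 knockdown cells (1), 1 in HNRNPA1 neurites (0) and 2 for the TDP-43 difference between fractions (1). DESeq2's size factors in edgeR called 1 in HNRNPA1 neurites, leaving out the filter called 1 in HNRNPA1 controls, and 1 fit of all groups called 4 in untreated cells. Changes of 1.5 times or less in these numbers of called members are not listed. For example, DESeq2 called ELAVL4, neurite minus soma, in TDP-43 controls and in TDP-43 knockdown cells, unlike edgeR. The causes of the changes under these alternatives were not tested. Without 1 library in turn, the number of members called ranged from 1 to 2 in untreated cells, 1 to 2 in HNRNPA1 controls, 1 to 3 in HNRNPA1 knockdown cells, 0 to 1 in HNRNPA1 neurites, 1 to 3 in TDP-43 controls, 2 to 3 in TDP-43 knockdown cells, 1 to 2 for the TDP-43 difference between fractions and 2 to 3 for TDP-43 controls against untreated cells. It stayed at 3 in TDP-43 somata, 4 in TDP-43 neurites, 3 for both differences of the knockdowns, 3 for HNRNPA1 controls against untreated cells and 0 elsewhere.

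Numbers of all genes called that differed by over 1.5 times were, under library sizes, 16965 in untreated cells (10483 with TMM), 14532 in HNRNPA1 knockdown cells (7092), 16427 in TDP-43 controls (10232), 1677 in TDP-43 somata (4170), 2580 in TDP-43 neurites (5470), 328 for the TDP-43 difference between fractions (2306) and 1114 for the difference of the knockdowns in somata (2298). One fit of all groups called 16100 in untreated cells and 1519 for the TDP-43 difference between fractions. The HNRNPA1 difference between fractions had 35 called genes, and 71 with library sizes, 77 with DESeq2, 140 without the filter, 54 with the replicate block and 8 in 1 fit of all groups.

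Libraries were tested without pairing by sample number. In the 9 pairs of groups checked, deviations of same-numbered samples correlated between -0.196 and 0.349. In none of them did every same-numbered pair pass the cutoff set for pairing. In TDP-43 knockdown cells all 4 neurite libraries with a soma library of their own number correlated best with it. With so few libraries per group, the check cannot show that the numbers are unpaired. The replicate block joined all libraries of an experiment with the same number, from knockdown and control cells alike. A block joining neurites and somata within knockdown cells or within control cells was not fitted. The replicate block therefore does not test such pairing. With it the called members of the TDP-43 difference between fractions became 2, since ELAVL1 passed at 0.28 (edgeR adjusted p = 0.048), and no other member's call changed. Depth was lowest in untreated neurites, which also used the earlier kit.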
